A study of Homo sapiens with 12 samples.

Results

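The genes described here are 10 that encode receptor tyrosine kinases, taken by symbol from a table of 60603 genes: EGFR, ERBB2, ERBB3, MET, FGFR1, FGFR3, IGF1R, INSR, PDGFRA and PDGFRB. They were read in 12 poly(A) RNA-seq libraries of T24, an established human bladder carcinoma line grown in DMEM with serum. The libraries form 4 groups of 3: WT cells without treatment, WT cells with 5-Ad-IAA, cells of the NS1 genotype without treatment, and NS1 cells with 5-Ad-IAA. 5-Ad-IAA is the auxin derivative that acts as inducer in AlissAID, a system in which a binding protein brings an untagged endogenous protein to an auxin-dependent ubiquitin ligase. The labels do not spell out NS1, which is also the name of a synthetic binder of HRAS, and they do not say whether the NS1 cells are 1 clone. Neither dose nor duration of treatment is used here. The labels do not say that replicates came from separate cultures, so p-values measure the spread between these libraries, which may be technical.

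Receptor tyrosine kinases span the plasma membrane, bind a growth factor outside the cell and phosphorylate each other on tyrosine inside it. The phosphotyrosines recruit adaptors such as GRB2, SHC1 and the IRS proteins, which pass the signal to RAS and ERK and to PI3K and AKT. Both pathways hold their receptors down by feedback, and in many cancer cells a block of either pathway is followed by higher ERBB3, IGF1R, INSR or PDGFRB transcripts through factors such as FOXO, a response known as adaptive rebound. The data hold mRNA only, so receptor protein, phosphorylation and ligand binding were not measured.

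With 5-Ad-IAA, 3 of the 8 receptor genes with enough counts for a test rose in NS1 cells: ERBB3, PDGFRB and ERBB2. Of all 17775 genes tested, 6.15% were called in this comparison and 2.76% as higher. EGFR, MET, FGFR1, IGF1R and INSR did not pass the test, and FGFR3 and PDGFRA had too few counts to be tested. In WT cells none of the 8 passed the same test. A rise was thus called for 3 of the genes and not for the family as a whole, and the difference in response between the lines did not pass its own test in that model. With the libraries taken as paired by replicate number, it passed for ERBB3, PDGFRB, ERBB2 and IGF1R. That paired fit called 14% of all genes, 6.98% as higher. The calls of ERBB3, PDGFRB and ERBB2 in NS1 cells were kept in 1 of 6 fits that each left out 1 NS1 library. They were kept in 1 of 3 fits without a replicate number, and none was kept with the NS1 libraries alone.

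Sequences just before the transcription start are shown for ERBB2 and PDGFRB, because both rose with 5-Ad-IAA in NS1 cells although their levels differ greatly. They come from the RefSeq promoter table on GRCh38.p14, which held 8 of the 10 genes (not ERBB3 or FGFR1). Each is 250 bases, 5′ to 3′ on the gene's own strand, with matches to the motifs searched in capitals. ERBB2 lies at chr17:39687844-39688093 on the plus strand and PDGFRB at chr5:150155846-150156095 on the minus strand.
ERBB2: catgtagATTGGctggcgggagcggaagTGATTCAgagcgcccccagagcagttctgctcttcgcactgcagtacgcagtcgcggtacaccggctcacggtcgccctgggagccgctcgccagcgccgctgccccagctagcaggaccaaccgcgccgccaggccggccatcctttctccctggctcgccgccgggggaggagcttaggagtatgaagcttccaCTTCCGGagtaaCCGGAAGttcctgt
PDGFRB: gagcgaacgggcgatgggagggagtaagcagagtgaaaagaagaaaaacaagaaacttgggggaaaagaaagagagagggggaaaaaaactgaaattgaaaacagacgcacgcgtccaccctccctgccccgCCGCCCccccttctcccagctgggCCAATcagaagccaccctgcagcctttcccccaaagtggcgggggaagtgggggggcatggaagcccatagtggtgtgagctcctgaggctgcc

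The motifs were searched on both strands of the 300 bases from 250 before to 50 after the start. EGFR and PDGFRA have 2 promoters each in the table, so the 8 genes have 10, and the background is 35116 RefSeq promoters of that length. GTAAACA, bound by FOXO factors, was in 0 of the 10 receptor promoters and in 3.42% of all promoters. TGANTCA, the AP-1 site loosened to any middle base, was in 3 of the 10 and in 7.71% of all. CCGGAAG, bound by ETS factors, was in 1 of the 10 and in 10.3% of all. GGGCGG, bound by SP1, was in 7 of the 10 and in 45% of all, CCAAT in 3 and in 34.6%, and TATAAA in 1 and in 11.5%. No pair of motif matches overlapped in the 2 sequences shown. With the start site as 0, ERBB2 held TGATTCA at -222, a pair of ETS matches on opposite strands at -26 and -14, and CCAAT letters at -243. PDGFRB held SP1 letters at -118 and CCAAT letters at -94 in the stretch shown. In GENCODE release 29 the 250 bases before the ERBB2 start lie wholly within exons of PGAP3 on the opposite strand, and 180 of them within ERBB2 exons. Of the PDGFRB stretch, 27 bases lie within PDGFRB exons. These matches describe letters only, and no binding was measured.

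Library totals ran from 10593934 to 20266996 counts, and replicate 1 was the deepest library of every group. Replicate 1 also stood apart in all groups, at 17.6 to 43.4 on the second principal component against -28.6 to -3.92 for the other replicates, so the receptor calls are also given without it. The 10 most abundant genes took 8.72% to 9.08% of the counts in treated NS1 libraries and 5.81% to 7.17% elsewhere. Markers fitted an epithelial line in part: KRT7, KRT8, KRT18 and KRT19 were abundant, while CDH1 and 5 of 9 urothelial markers (KRT5, TP63, KRT20, UPK1B and UPK3A) held at most 3 counts in each of the 12 libraries. The 4 mesenchymal markers (VIM, CDH2, FN1 and ZEB1) were all above it and summed to 2189 to 9056 CPM, beside 4018 to 10961 CPM for the 6 epithelial ones. HBB and HBA1 of red cells and 3 of 5 leukocyte markers, PTPRC and CD3E among them, were at that floor, while CD14 and CD68 were not (list sums 8.21 to 26.3 CPM). HRAS stood at 214 ± 51.8 CPM (SD, n = 3) in untreated WT cells and 213 ± 16.6 with 5-Ad-IAA, and in NS1 cells at 185 ± 8.25 without and 156 ± 10.3 with it. Its log2 fold change with 5-Ad-IAA in NS1 cells was -0.24 (adjusted p = 0.372, edgeR), so the RNA does not check a loss of protein.

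Levels are given as normalised CPM, the read count as a rate of the TMM-scaled library total, and between genes as CPM per kb of exon. In untreated WT cells the order of levels per kb was MET at 20.7 ± 3.77 (SD, n = 3), EGFR at 11.8 ± 3.38, ERBB2 at 9.16 ± 0.778, IGF1R at 3.99 ± 1.07 and FGFR1 at 3.05 ± 0.570 CPM per kb. MET, the receptor of hepatocyte growth factor, was above EGFR in all libraries of that group, while EGFR overlapped ERBB2, and IGF1R overlapped FGFR1. INSR at 0.398 ± 0.165, PDGFRB at 0.289 ± 0.200 and ERBB3 at 0.116 ± 0.0193 CPM per kb followed, and each overlapped the next. FGFR3 at 0.0367 ± 0.0208 CPM per kb was below ERBB3 in all 3 libraries, and PDGFRA had no count in this group. In treated NS1 cells the first 5 stood in the same order without overlap between neighbours: MET at 20.3 ± 5.14, EGFR at 12.5 ± 1.64, ERBB2 at 9.48 ± 0.601, IGF1R at 7.34 ± 0.963 and FGFR1 at 4.59 ± 0.368 CPM per kb. PDGFRB, at 1.65 ± 0.948 CPM per kb, then stood above INSR at 0.279 ± 0.0628 and ERBB3 at 0.273 ± 0.173, and the last pair overlapped. The levels thus fell into an abundant set of 5 receptors and a sparse set of 5, and only PDGFRB of the sparse set passed 1 CPM per kb on average in any group.

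**Figure D1:**
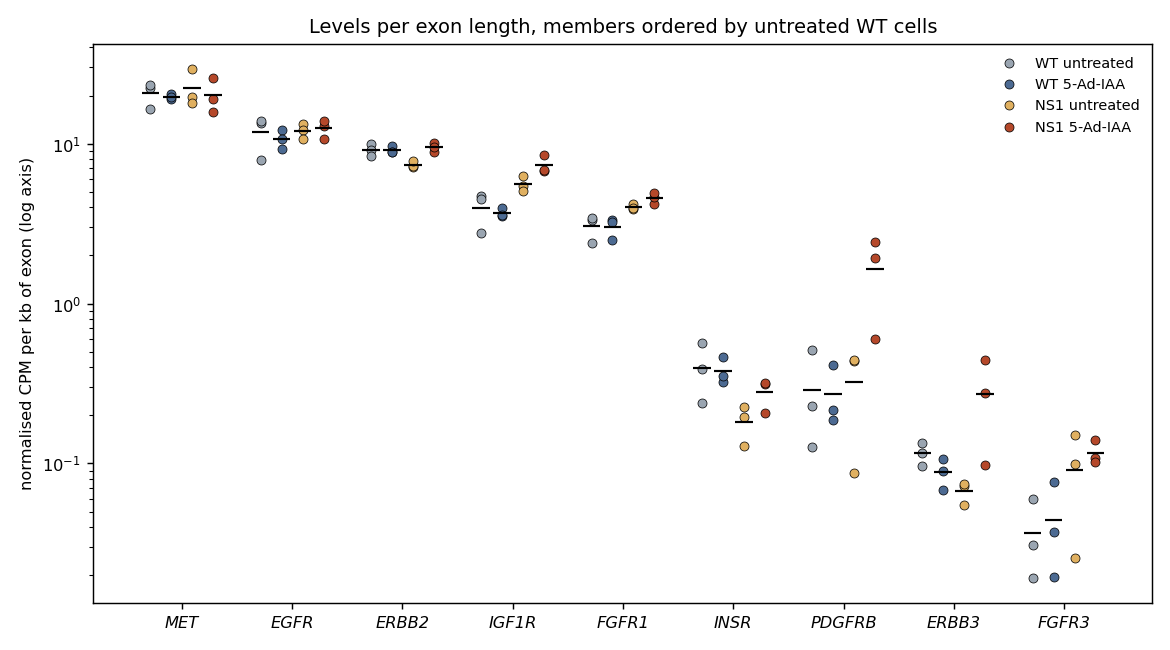
Normalised CPM per kb of exon (log axis) for 9 receptor genes in the 12 libraries, coloured by group, with a bar at each group mean. PDGFRA is not drawn because it has libraries at 0. MET, EGFR, ERBB2, IGF1R and FGFR1 lie above the other 4 genes within each group.

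ERBB3 is a receptor with little kinase activity of its own that binds neuregulins and signals to PI3K in a pair with ERBB2. Its normalised levels in untreated NS1 cells were 0.494, 0.654 and 0.673 CPM in replicates 1 to 3, and with 5-Ad-IAA they were 0.884, 4.02 and 2.49 CPM. The treated libraries were all above the untreated ones, with replicate 1 the lowest of the treated. In WT cells the levels were 1.22, 1.05 and 0.870 CPM without treatment and 0.617, 0.964 and 0.810 CPM with it, and these groups overlapped. In NS1 cells ERBB3 rose by 1.97 on the log2 scale (SE 0.48, fold 3.92, adjusted p = 0.0299, edgeR's quasi-likelihood test). The gene (ENSG00000065361.15) lies at chr12:56076799-56103505 on the plus strand, in GENCODE release 29 on GRCh38. These levels rest on 7 to 9 counts per untreated and 17 to 46 per treated NS1 library. Of its exon bases, 0.343% are shared with another annotated gene.

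ERBB2 binds no known ligand and is the preferred partner of the other ERBB receptors. Its levels were 73.3, 74.7 and 80.6 CPM in untreated NS1 cells and 91.3, 104 and 98.6 CPM with 5-Ad-IAA. All treated libraries were above all untreated ones. In WT cells they were 103, 94.5 and 86.5 CPM without treatment and 99.9, 92.1 and 91.2 CPM with it. The untreated NS1 libraries were below all WT ones, and the treated NS1 libraries overlapped them. ERBB2 rose in NS1 cells by 0.36 on the log2 scale (SE 0.10, fold 1.28, adjusted p = 0.0458, edgeR). The gene (ENSG00000141736.13) lies at chr17:39687914-39730426 on the plus strand in the same annotation. It shares 5.53% of its exon bases with MIEN1 and 1.88% with PGAP3 on the opposite strand, and whether reads were counted by strand is not given in the sources used here.

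EGFR, the receptor of EGF, TGFA, AREG and related ligands, was the most abundant ERBB gene. Its levels were 166, 152 and 133 CPM in untreated and 162, 173 and 133 CPM in treated NS1 cells, and 169, 174 and 98.6 CPM in untreated and 152, 116 and 134 CPM in treated WT cells. All 4 groups overlapped. The log2 fold change with 5-Ad-IAA in NS1 cells was 0.05 (SE 0.19, adjusted p = 0.923, edgeR).

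PDGFRB, the PDGF receptor of pericytes and fibroblasts that binds PDGFB and PDGFD, had the largest change among the 10 genes. In untreated NS1 cells its levels were 0.617, 3.13 and 3.17 CPM, and with 5-Ad-IAA they were 4.26, 13.8 and 17.4 CPM. The gene (ENSG00000113721.14) is on chromosome 5, minus strand, and shares no exon base with another annotated gene. Replicate 1 was the lowest in both groups, and the treated group stayed above the untreated one. In WT cells the levels were 3.65, 0.901 and 1.64 CPM without treatment and 2.94, 1.34 and 1.53 CPM with it. PDGFRB rose in NS1 cells by 2.38 on the log2 scale (SE 0.62, fold 5.22, adjusted p = 0.0374, edgeR). Within replicate numbers the treated level was 6.91, 4.41 and 5.47 times the untreated one, a narrower range than the levels themselves. In bulk RNA a rise in few cells and a small rise in all cells cannot be told apart. PDGFRA, the related receptor of PDGFA, held at most 3 counts in any library, so no fold is given.

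IGF1R and INSR bind insulin-like growth factors and insulin and signal through the IRS adaptors. IGF1R stood at 75.7, 88.0 and 70.5 CPM in untreated and 93.9, 118 and 95.3 CPM in treated NS1 cells, without overlap. Its log2 fold change of 0.39 (SE 0.17, unadjusted p = 0.0421) did not pass the test over all genes (adjusted p = 0.217, edgeR). In WT cells IGF1R stood at 65.6, 62.8 and 38.4 CPM without and 55.3, 48.9 and 49.8 CPM with treatment, all below the NS1 libraries. INSR stood at 2.35, 2.04 and 1.35 CPM in untreated and 3.27, 3.32 and 2.16 CPM in treated NS1 cells, with overlap (log2 fold change 0.59, SE 0.33, adjusted p = 0.350, edgeR). Its WT levels were 2.48, 5.93 and 4.06 CPM without and 3.37, 4.82 and 3.69 CPM with treatment, and the untreated WT libraries were all above the untreated NS1 ones.

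MET stood at 205, 139 and 127 CPM in untreated and 182, 134 and 112 CPM in treated NS1 cells (log2 fold change -0.14, SE 0.20, adjusted p = 0.776, edgeR). In WT cells it stood at 158, 164 and 115 CPM without and 144, 134 and 137 CPM with treatment. All 4 MET groups overlapped, and in NS1 cells replicate 1 was the highest with and without 5-Ad-IAA. FGFR1, a receptor of FGF2 and FGF5, stood at 54.3, 57.7 and 55.0 CPM in untreated and 57.9, 64.6 and 67.9 CPM in treated NS1 cells. These FGFR1 groups did not overlap, but the log2 fold change of 0.19 (SE 0.14) did not pass the test (adjusted p = 0.520, edgeR). FGFR1 in WT cells was lower in every library, at 33.2, 45.9 and 47.6 CPM without and 34.7, 46.2 and 44.8 CPM with treatment. FGFR3, often altered in bladder tumours, held 2 to 13 counts per library, at most 0.727 CPM.

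**Figure D2:**
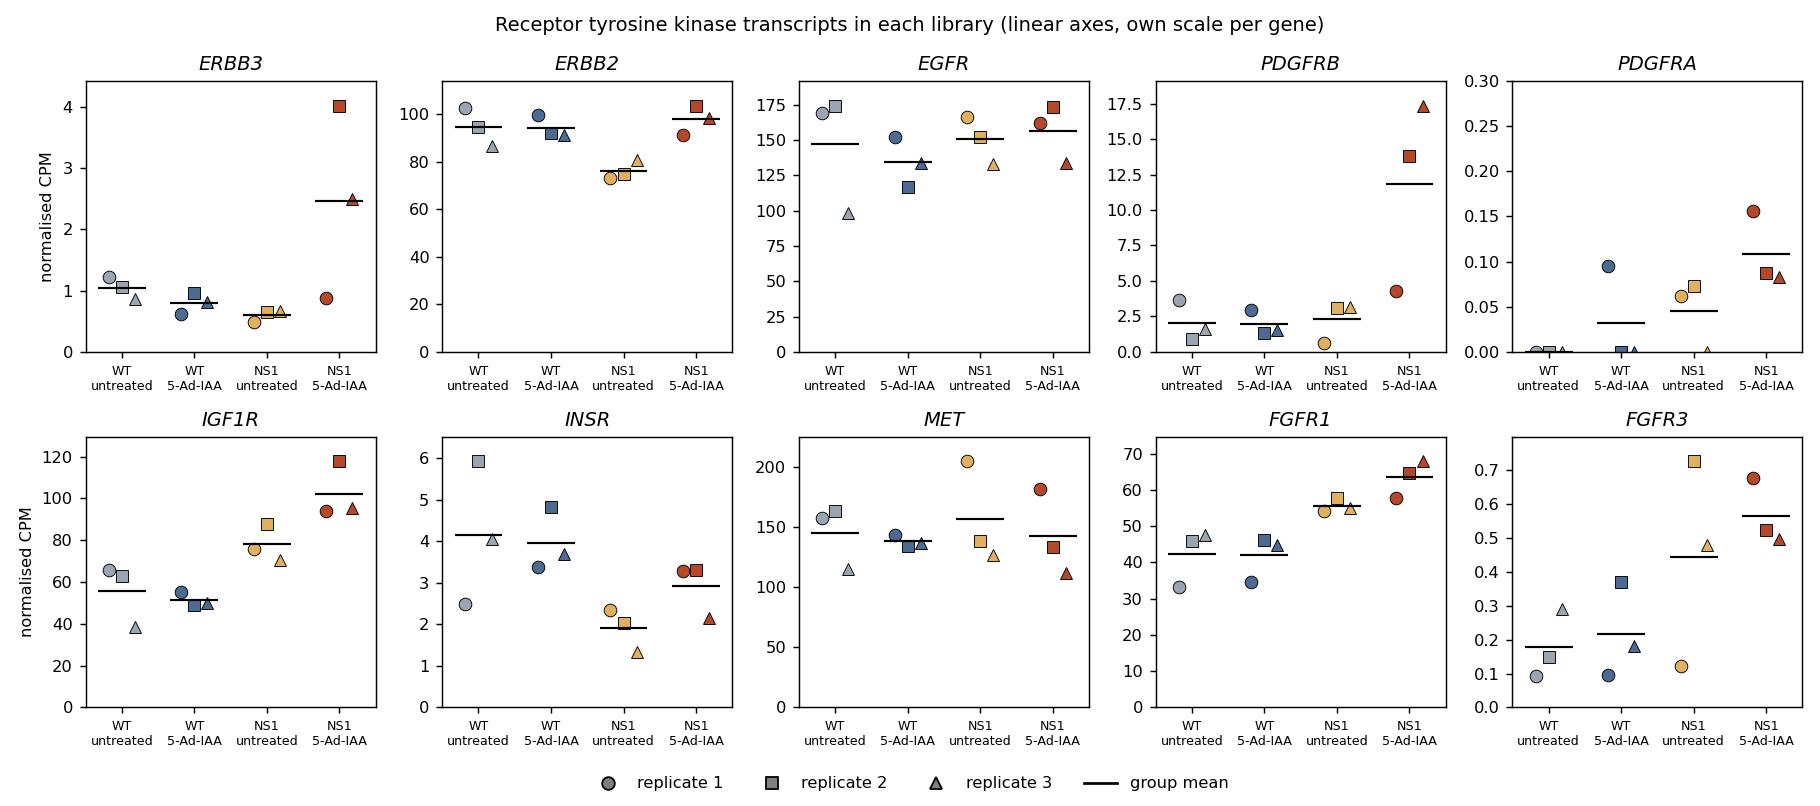
Normalised CPM of each receptor gene in the 12 libraries (linear axes, one scale per gene), with a symbol for each replicate number and a bar at each group mean. ERBB3, PDGFRB and ERBB2 are higher in all 3 treated than in all 3 untreated NS1 libraries, with PDGFRB reaching 17.4 CPM.

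Calls are those with an adjusted p under 0.05, by Benjamini and Hochberg's method over every gene tested. The NS1 groups did not overlap, with the treated libraries higher, for 5 of the 8 (ERBB2, ERBB3, PDGFRB, IGF1R and FGFR1) and for 13.2% of all genes. The median log2 fold change of the 8 was 0.38, and that of all genes was 0.0055. Scaled by library totals, ERBB2 was not called (adjusted p = 0.117), and of all genes called 370 were higher and 759 lower, against 490 higher and 603 lower with TMM.

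The calls for ERBB2, ERBB3 and PDGFRB changed with the libraries used. Without replicate 1 in any group their adjusted p were 0.0262, 0.00215 and 7.94e-05, and without replicate number 2 or 3 none was called (0.288 to 0.498). Of all genes, 2021 were called without replicate 1 and 0 without replicate number 2 or 3, against 1093 with all libraries. In 6 fits that each left out 1 NS1 library, all 3 genes were called without treated replicate 1, and none was called without treated replicate 2 or 3 or without any one untreated replicate. Adjusted p then reached 0.165 for ERBB2, 0.121 for ERBB3 and 0.145 for PDGFRB, while the log2 fold changes stayed at 0.32 to 0.41, 1.42 to 2.42 and 1.88 to 2.81. Of all genes, 1179 were called without treated replicate 1, and 403 to 581 in the fits that lost the 3 calls. Fitted with the NS1 libraries alone, the 3 adjusted p were 0.0589, 0.0885 and 0.0706, and 1007 of all genes were called. With the replicate numbers taken as pairs within a line, a block per number and line gave adjusted p of 0.00159, 0.00068 and 4.10e-07 in edgeR. It also called IGF1R (0.0122), but that numbers 2 and 3 are matched was not shown. That blocked fit called 25.9% of all genes, 13% as higher.

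Within numbers, the treated over untreated ratio in NS1 cells was 1.79, 6.14 and 3.70 for ERBB3, 1.25, 1.39 and 1.22 for ERBB2, and 1.24, 1.34 and 1.35 for IGF1R. It was also above 1 in all 3 numbers for INSR (1.40, 1.63 and 1.6) and FGFR1 (1.07, 1.12 and 1.23). MET was below 1 in all 3, at 0.889, 0.963 and 0.882. In WT cells the ratios were 0.507, 0.918 and 0.932 for ERBB3, 0.806, 1.48 and 0.932 for PDGFRB, 0.974, 0.975 and 1.05 for ERBB2, and 0.843, 0.778 and 1.30 for IGF1R. Of these 4 genes in WT cells, ERBB3 alone moved the same way in all 3 numbers, and it was lower.

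**Figure D3:**
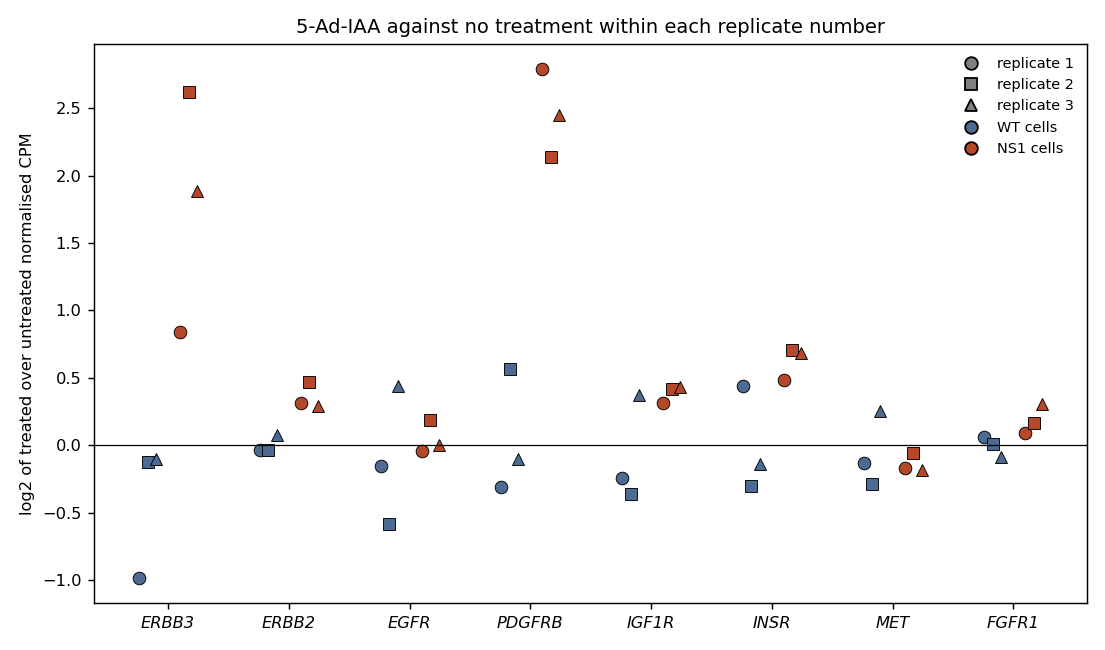
Log2 of treated over untreated normalised CPM within each replicate number for the 8 tested receptor genes, WT cells on the left and NS1 cells on the right of each gene. PDGFRB in NS1 cells lies at ratios of 4.41 to 6.91, and ERBB3 at 1.79 to 6.14, while the WT points lie on both sides of 0 except for ERBB3.

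5-Ad-IAA in WT cells addresses what the compound does outside the NS1 line. None of the 8 receptor genes was called by edgeR, none had an unadjusted p under 0.05, and DESeq2 called none. Of all genes edgeR called 0, or 0%, with 94 at an unadjusted p under 0.05. The 8 log2 fold changes were all below 0, from -0.45 for ERBB3 (SE 0.49) to -0.0024 for ERBB2 (SE 0.10). All groups overlapped. The error was wide for ERBB3 and for PDGFRB (SE 0.66), which held 9 to 26 and 12 to 78 counts per library. With the block within lines the SE of PDGFRB was 0.22. Without replicate 1 none of the 8 was called either.

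The interaction asks whether the response to 5-Ad-IAA differed between NS1 and WT cells. edgeR called 0 of the 8 receptor genes and 0.0225% of all genes (4 genes). ERBB3 (2.42, adjusted p = 0.146), PDGFRB (2.50, adjusted p = 0.257) and ERBB2 (0.36, adjusted p = 0.286) had an unadjusted p under 0.05. DESeq2 called 0 of the 7 receptor genes for which it gave an adjusted p, ERBB3 not being among them. A larger response in NS1 than in WT cells is therefore not shown with a mean per group, filtered genes and all libraries. Without replicate 1 it was called for ERBB3 (adjusted p = 0.0486, edgeR) and PDGFRB (0.0275), in a fit that called 573 of 17667 genes. Without replicate number 2 or 3 it was called for none of the receptor genes. With no filter it was called for ERBB3 (adjusted p = 0.0031, edgeR) and PDGFRB (9.28e-09), in a fit that called 683 of 34084 genes. With a block per number and line it was called for ERBB3 (adjusted p = 0.00444), PDGFRB (8.38e-05), ERBB2 (0.0245) and IGF1R (0.0415), in a fit that called 14% of all genes and 6.98% as higher.

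**Figure D4:**
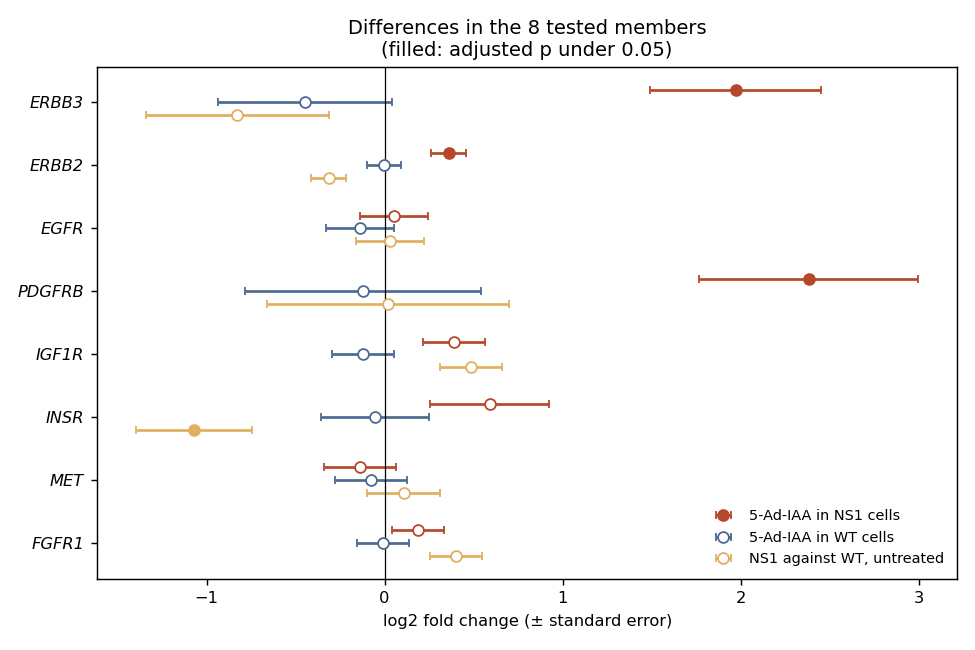
Log2 fold changes of the 8 tested receptor genes with their standard errors for 5-Ad-IAA in NS1 cells, 5-Ad-IAA in WT cells, and untreated NS1 against untreated WT cells (filled points have an adjusted p under 0.05). ERBB3, PDGFRB and ERBB2 are filled for NS1 cells with 5-Ad-IAA, INSR for the untreated lines, and none for WT cells with 5-Ad-IAA.

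Without 5-Ad-IAA, 1 of the 8 receptor genes differed between the lines, and 12.5% of all genes did (7.05% lower in NS1). INSR was lower in NS1 cells by 1.07 on the log2 scale (log2 fold change -1.07, SE 0.33, 2.10-fold, adjusted p = 0.0479, edgeR). The INSR groups did not overlap, but the call held in 1 of 6 fits without 1 library, that without untreated WT replicate 1 (adjusted p = 0.0125). It was lost in the other 5 (adjusted p up to 0.180, without untreated WT replicate 2) and with these 2 groups alone (0.0802). ERBB2 was -0.31 (adjusted p = 0.0528), FGFR1 0.40 (0.0890), IGF1R 0.49 (0.0876) and ERBB3 -0.83 (0.326), edgeR values that did not pass. Without replicate 1, INSR (-1.54, adjusted p = 0.00591), IGF1R (0.64, 0.0400) and PDGFRB (1.35, 0.0120) were called, in a fit that called 3466 of 17667 genes. ERBB2, ERBB3 and INSR had all 3 NS1 libraries below all 3 WT ones, as 16.2% of all genes did, and FGFR1 and IGF1R had them above, as 14.8% did.

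With 5-Ad-IAA in both lines, 4 of the 8 were higher in NS1 cells, where 28.2% of all genes were called and 13.6% as higher. This comparison shares its NS1 libraries with the response to 5-Ad-IAA in NS1 cells, so the values are not independent. IGF1R was higher by 0.99 (SE 0.18, 1.99-fold, adjusted p = 0.00113) and FGFR1 by 0.60 (SE 0.14, 1.52-fold, adjusted p = 0.00785) on the log2 scale in edgeR. PDGFRB was higher by 2.52 (SE 0.61, 5.75-fold, adjusted p = 0.00796) and ERBB3 by 1.59 (SE 0.46, 3.02-fold, adjusted p = 0.0191). The ERBB3 groups overlapped, since treated NS1 replicate 1 at 0.884 CPM was below treated WT replicate 2 at 0.964 CPM. IGF1R stayed called in all 6 fits without 1 library and all 3 without a replicate number. FGFR1 and PDGFRB stayed called in the 6, but without replicate number 2 or 3 their adjusted p was 0.0771 to 0.159. Without replicate 1 in any group all 4 genes were called, in a fit that called 6007 of 17667 genes. ERBB3 was not called without treated NS1 replicate 2 (adjusted p = 0.106), treated WT replicate 1 (0.0740) or treated WT replicate 3 (0.0507).

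Ligands of the 10 receptors were read from a list of 26 genes, of which 15 were tested. HGF, IGF1 and INS, which encode the ligands of MET, IGF1R and INSR, held at most 1 count in any library, while IGF2, another IGF1R ligand, stood at 38.6 ± 5.72 CPM (SD, n = 3) in untreated WT and 63.3 ± 24 in untreated NS1 cells. Without 5-Ad-IAA, 5 ligands were higher and 1 lower in NS1 than in WT cells, where 12.5% of all genes were called. The PDGFRB ligand PDGFB was 16.6 ± 3.06 CPM in WT and 63.8 ± 32.5 in NS1 cells (log2 fold change 1.95, adjusted p = 0.0148, edgeR), and PDGFD was higher by 2.08 (adjusted p = 0.00163). FGF5 was higher by 1.81 (0.000492), the EGFR ligand HBEGF by 1.55 (0.000945) and PDGFC by 0.59 (0.00922). PDGFA, the main ligand of PDGFRA, was lower, with a log2 fold change of -1.03 (0.000321). Of the PDGF genes, PDGFB, PDGFC and PDGFD were thus higher and PDGFA lower in NS1 cells.

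With 5-Ad-IAA in NS1 cells none of the 15 ligands was called by edgeR, and 3 had an unadjusted p under 0.05 (TGFA, AREG and PDGFC). The EGFR ligand TGFA went from 56.5 ± 4.28 to 41.4 ± 2.88 CPM (log2 fold change -0.45, adjusted p = 0.0945) and AREG from 1.59 ± 0.604 to 0.541 ± 0.244 CPM (-1.61, adjusted p = 0.115). HBEGF, with an unadjusted p of 0.0598, went from 48.2 ± 4.09 to 35.6 ± 4.81 CPM (-0.44, adjusted p = 0.265). TGFA, AREG and HBEGF had all treated libraries below the untreated ones. In the list 5 of 15 ligands were lower and 2 higher without overlap between the groups. Of all genes, 13.2% were higher without overlap, and the share lower is not given here. With the block within lines 6 ligands were called lower and 1 higher, with adjusted p of 0.000471 for TGFA, 0.00292 for AREG and 0.000904 for HBEGF. The same fit called 25.9% of all genes, and 13% as higher. The neuregulin gene NRG1, whose product binds ERBB3, stood at 10.5 ± 1.55 and 10.7 ± 3.95 CPM (log2 fold change 0.04, adjusted p = 0.965).

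Of 34 other receptor tyrosine kinase genes, Eph receptors apart, 16 were tested and none was called with 5-Ad-IAA in NS1 cells by edgeR, with 2 at an unadjusted p under 0.05 and a median log2 fold change of 0.0055. They were the collagen receptor DDR1 (0.50, adjusted p = 0.0823) and PTK7 (0.36, adjusted p = 0.133). With the block within lines 3 of the 16 were called, all higher, in a fit that called 25.9% of all genes and 13% as higher.

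Of 26 adaptors and proximal effectors, 24 were tested and 1 rose with 5-Ad-IAA in NS1 cells, IRS2, the adaptor of IGF1R and INSR (28.8 ± 5.68 to 67.0 ± 27.4 CPM, log2 fold change 1.22, adjusted p = 0.0213, edgeR). Of 20 negative regulators, 18 were tested, and 1 rose and 1 fell. CBLB, a ubiquitin ligase that sends active receptors to degradation, rose from 6.83 ± 1.88 to 18.8 ± 2.81 CPM (1.45, adjusted p = 0.00378). SOCS2, a suppressor of cytokine receptor signalling, fell from 56.7 ± 11.3 to 35.4 ± 3.15 CPM (log2 fold change -0.67, adjusted p = 0.0215). The remaining 16 negative regulators did not pass the test in that comparison, where 6.15% of all genes were called.

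FOXO factors and transcripts known to follow them are the list closest to the rebound described for these receptors. Of 20 genes 18 were tested, 5 rose and none fell with 5-Ad-IAA in NS1 cells, where 2.76% of all genes rose, with a median log2 fold change of 0.58. They were PIK3IP1, an inhibitor of PI3K (1.98, adjusted p = 0.0478), the coregulator CITED2 (1.24, 0.0104), IRS2 (1.22, 0.0213), FOXO4 (1.13, 0.0117) and the death inducer BCL2L11 (0.61, 0.0243), the last named after its value was seen. IRS2 belongs to this list and to the adaptors. The block within lines called 13 of the 18, all higher, against 13% of all genes called higher in that fit. In WT cells with 5-Ad-IAA edgeR called none of these 7 lists' genes.

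Of 10 transcripts in use as a readout of ERK activity, 7 fell and 1 rose with 5-Ad-IAA in NS1 cells, with a median log2 fold change of -0.81. ETV4 (-1.14, adjusted p = 0.00742), SPRY4 (-1.12, 0.0120), DUSP4 (-0.85, 0.0017) and PHLDA1 (-0.85, 0.0132) fell, and EPHA4, itself an Eph receptor kinase, rose by 2.00 (0.00799). All 10 proliferation transcripts fell (median -0.73), PLK1 and AURKB among them. For both lists the comparison called 6.15% of all genes, 2.76% as higher. Summed urothelial markers were 97.6 to 114 CPM in untreated and 148 to 213 CPM in treated NS1 libraries, with PPARG and GATA3 the main part. Summed mesenchymal markers were 3729 to 4190 CPM in untreated and 4889 to 7451 CPM in treated NS1 libraries, and endothelial ones 0.0617 to 1.06 and 1.35 to 4.07 CPM, both without overlap. The part of these marker and cell cycle shifts, and of the share taken by the 10 most abundant genes, in the receptor results was not tested.

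**Figure D5:**
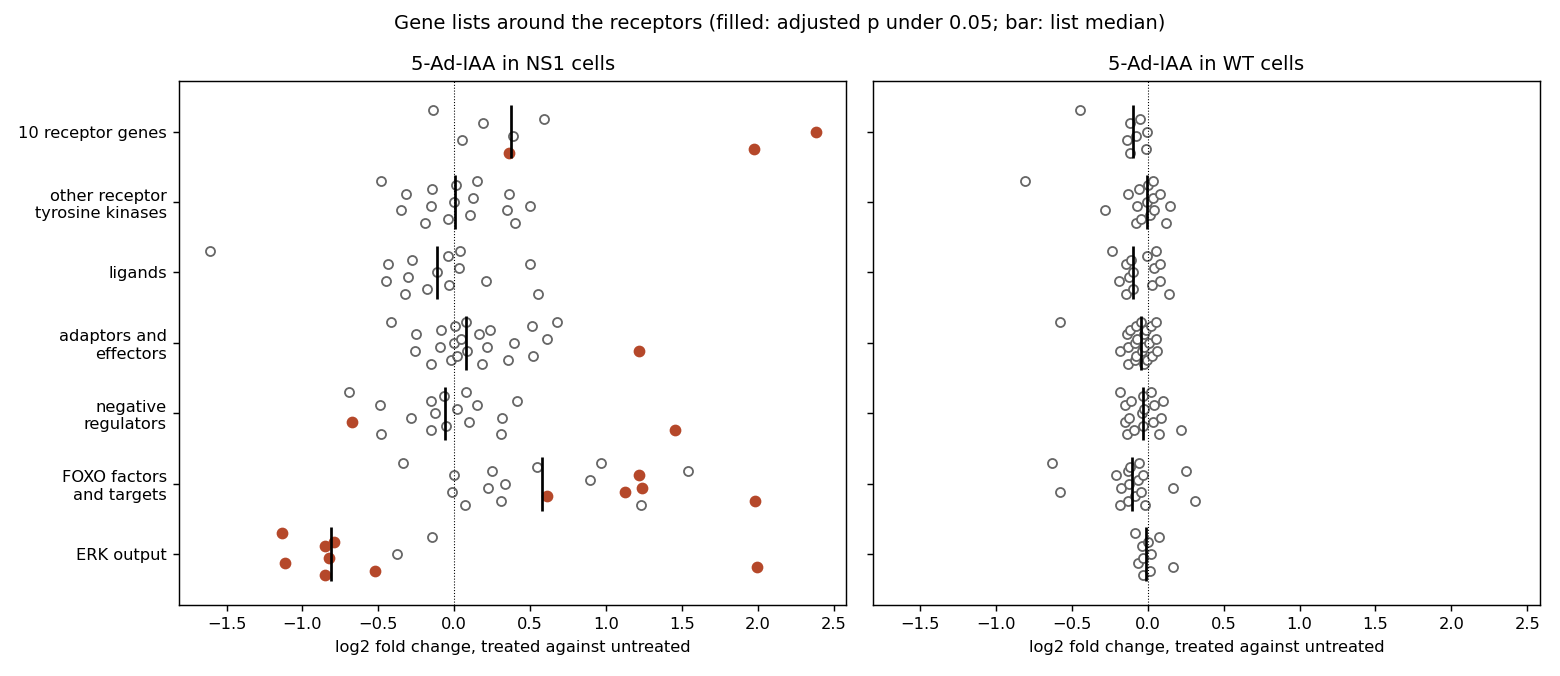
Log2 fold changes with 5-Ad-IAA in NS1 cells (left) and WT cells (right) for the tested genes of the receptors and 6 surrounding lists, with a bar at each list's median and filled points at an adjusted p under 0.05. In NS1 cells filled points lie at higher values for the receptors and the FOXO list (medians 0.38 and 0.58) and mostly at lower values for ERK output (median -0.81), and WT cells have none.

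The genes whose pattern over the 12 libraries was most like PDGFRB, by Euclidean distance between centred log2 CPM values, were MEGF6 (1.28), the epithelial transcription factor ELF3 (1.51) and TCIM (1.53). ELF3 went from 1.56 ± 1.21 to 13.5 ± 8.76 CPM with 5-Ad-IAA in NS1 cells (log2 fold change 3.14, adjusted p = 0.0223, edgeR) and TCIM from 1.44 ± 0.730 to 7.99 ± 3.91 CPM (2.50, 0.00717). MEGF6 went from 10.4 ± 6.78 to 42.4 ± 28.0 CPM (2.04, 0.0755) and did not pass. These genes were picked for likeness to PDGFRB over the same 12 libraries, so a rise with 5-Ad-IAA follows from the choice and is no separate result. Among the receptors themselves the closest pairs were EGFR with MET (0.685) and EGFR with ERBB2 (0.937), all of the abundant set. The values were centred but not scaled, so genes that vary little lie close to each other whether or not they share a pattern.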

How the data were processed

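The authors deposited whole-number read counts per gene for the 12 libraries, not normalized. STAR 2.7.3a, featureCounts 1.6.4 and hg38 are named in the submitters' processing notes. The annotation used and any strand setting are not given in the sources used here. Libraries were made with NEBNext poly(A) and library kits, per the labels' protocols. All columns were matched to a library by name.

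The filterByExpr rule over the 4 groups left 17775 genes, which were scaled by TMM, and fitted in edgeR 4.0.16 (R 4.3.3) as one quasi-likelihood model with a mean per group. The tests are two-sided, with Benjamini-Hochberg adjustment over all genes, and a gene was called under 0.05. At most 3 counts in each library counts as the floor. Standard errors were derived from the test of that fit and include the spread between libraries. Exon lengths and overlaps came from GENCODE release 29, and promoters from RefSeq. edgeR recovered 61% of 100 genes changed 2-fold and 94% of 100 changed 4-fold in simulated data for the NS1 response over 17775 genes. It also called 7 unchanged genes (0.0398%). The changed genes had a mean above 1 CPM, and neither a smaller change nor a shift of replicate 1 was simulated. These shares therefore need not hold for the receptor genes.

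Same-numbered treated and untreated libraries deviated together, with correlations of 0.713, 0.386 and 0.384 in NS1 and 0.752, 0.385 and 0.256 in WT cells. The fits with a block within line took them as pairs. Libraries with different numbers were not compared. Since replicate 1 stood apart in all groups, these correlations cannot show that numbers 2 and 3 are matched. Between the untreated lines the correlations were 0.136, 0.0719 and 0.190, so under a minimum of 0.1 in every pair the numbers were not taken to pair the lines. All 12 correlations across lines were positive (0.00601 to 0.229). No pair of libraries within a group looked like one deposited again, and pairs between groups were not checked. Named genes are the 10 receptors, the RAS genes, and of each list the called genes with the largest changes (up to 4 in each direction, mean of at least 1 CPM), ligands in addition, and the 3 genes nearest to the called receptor with the largest change. The receptors, lists, rules and tests were chosen with earlier results of these data known. Alternatives were RLE scaling, library totals, no filter, at least 10 counts in every library, only the groups compared, replicate blocks, DESeq2 1.42.0, and leaving out libraries or replicate numbers. One marker gene is not reported here.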

Additional observations from a re-analysis of the deposited data

How the results depend on the processing

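The depth behind the sparse receptors was 7 to 46 counts per library for ERBB3 and 10 to 209 for PDGFRB. The count of receptor genes called with 5-Ad-IAA in NS1 cells was 0 of 8 in the fit of the NS1 groups alone and 0 to 3 when a library or a replicate number was left out, where all genes called ran from 0 to 2021. All genes called there rose from 1093 to 1801 with no filter, to 2421 with the replicate block and to 4596 with the replicate block within line. In the interaction, receptor genes called were 2 with no filter, 4 with the block within line and 0 to 2 when libraries were left out, and all genes called were 7 with RLE scaling, 683 with no filter, 33 with at least 10 counts in every library, 634 with the replicate block, 2495 with the block within line, 387 with DESeq2 and 0 to 573 when libraries were left out. Between the untreated lines, receptor genes called were 2 with no filter, 0 with only the groups compared, 4 with the replicate block, 2 with DESeq2 and 0 to 3 with libraries left out, and all genes called were 3908 with the block and 182 to 3466 with libraries left out. Those 4 were ERBB2 (adjusted p = 0.0300, edgeR), FGFR1 (0.0118), IGF1R (0.0256) and INSR (0.0246). With 5-Ad-IAA in both lines, leaving libraries out gave 1 to 4 receptor genes and 1632 to 6007 of all genes. The replicate block changed no call for the receptors in WT cells. The cause of these shifts was not tested.

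Log2 fold changes that turned sign were all of genes not called in the comparison with all libraries. Without replicate 1, PDGFRB was called higher in untreated NS1 than in untreated WT cells (1.35, adjusted p = 0.0120, edgeR), against 0.02 with all libraries. Library totals gave -0.0080 for EGFR in NS1 cells with 5-Ad-IAA, -0.0023 for EGFR and -0.022 for PDGFRB between untreated lines, and -0.029 for ERBB2 and -0.026 for MET between treated lines. The replicate block gave -0.11 for PDGFRB between untreated lines, and 0.0024 for INSR within line in WT cells. ERBB2 in WT cells was 0.0024 with RLE scaling and 0.0027 with DESeq2. With libraries left out, the ranges were -0.030 to 0.16 for EGFR and -0.36 to 0.10 for MET in NS1 cells, and in WT cells -0.36 to 0.093 for EGFR, -0.061 to 0.061 for ERBB2, -0.16 to 0.11 for FGFR1, -0.32 to 0.018 for IGF1R, -0.35 to 0.31 for INSR, -0.22 to 0.041 for MET and -0.62 to 0.70 for PDGFRB. Between untreated lines they were -0.19 to 0.17 for EGFR, -0.14 to 0.29 for MET and -0.64 to 1.35 for PDGFRB, between treated lines -0.0025 to 0.14 for ERBB2 and -0.18 to 0.20 for MET, and in the interaction -0.11 to 0.44 for EGFR and -0.28 to 0.18 for MET.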

Other observations

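AXL, a receptor tyrosine kinase outside the 10, stood at 509 ± 30.0 CPM (SD, n = 3) in untreated WT and 772 ± 146 in untreated NS1 cells (log2 fold change 0.60, adjusted p = 0.0246, edgeR). RET was also higher in NS1 cells (1.83, adjusted p = 0.00988), and neither AXL (0.00, adjusted p = 0.999) nor RET (-0.48, adjusted p = 0.501) was called with 5-Ad-IAA there. KIT, named after its values were seen, held 0 to 3 counts in WT and 4 to 21 in NS1 libraries.

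Among adaptors and negative regulators, the untreated lines differed in GRB10, which binds the insulin and IGF receptors and dampens them: 60.9 ± 3.56 CPM in WT and 29 ± 2.98 in NS1 cells (log2 fold change -1.07, adjusted p = 0.00021, edgeR). GRB7, a neighbour of ERBB2 on its chromosome, was lower as well (-1.66, adjusted p = 0.0187). The receptor phosphatase PTPRF (0.84, adjusted p = 0.00126), LRIG1, which lowers ERBB receptors (1.03, 0.0116), SOCS6 (0.80, 0.00589) and the decoy receptor FGFRL1 (0.70, 0.00757) were higher. Between these lines 5 of 18 negative regulators and 7 of 24 adaptors were called, where 12.5% of all genes were.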
